A study of Mus musculus with 6 samples.

Results

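The Kruppel-like factors are zinc finger transcription factors that bind CACCC and GC-rich elements through a conserved C-terminal domain. 10 members listed for roles in adipogenesis were taken by symbol from the counts of 3T3-L1 adipocytes. They were *Klf2*, *Klf3*, *Klf4*, *Klf5*, *Klf6*, *Klf7*, *Klf9*, *Klf10*, *Klf13* and *Klf15*. These are 10 of the 24421 gene symbols counted, and each of the 10 had enough reads to be tested. 3T3-L1 is a mouse cell line, 1 established line of embryo fibroblasts, that turns into adipocytes in culture. Both groups were mature 3T3-L1 adipocytes differentiated with insulin (870 nM), dexamethasone (1 µM), IBMX (500 µM) and a TZD (5 µM). Dexamethasone and IBMX were left out from day 3 of differentiation on, while insulin and the TZD stayed. Both groups were infected on day 7 with 100 pfu per cell of an adenovirus. The virus carried *LacZ* in the control group (AdLacZ) and a codon-optimized *Lmo3* in the other (Ad*Lmo3*), and RNA was collected 72 h later, from 3 separate infections per group. LMO3 is a LIM-only protein that acts as a transcriptional cofactor. The comparison asked which mRNAs differed when LMO3 was overexpressed in adipocytes that had already matured.

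In adipogenesis the Kruppel-like factors act in relays. KLF4 switches on *Cebpb* early. KLF5, KLF9, KLF13 and KLF15 act at *Pparg* or with C/EBP proteins, and KLF6 represses *Dlk1*, which encodes the preadipocyte protein PREF-1. KLF2 represses *Pparg*, KLF3 recruits the corepressor CtBP to *Cebpa*, and KLF7 holds back differentiation. KLF10 is known as an early gene of TGF-beta signaling, and no direction in adipogenesis was assigned to it here.

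The libraries held 28035639 to 38332335 counts on genes. A further 7.15% to 8.94% of reads fell on no gene, the highest share being that of Ad*Lmo3* replicate 3, which also had the lowest total. No library held a read of endogenous *Lmo3* (0 counts), so that the viral transgene could not be read from the counts. Adipocyte markers were abundant. Their 10 transcripts summed to 11770 to 12214 CPM in AdLacZ and 17646 to 21828 CPM in Ad*Lmo3* libraries. CPM are counts scaled to library size by TMM. By the test described below 8 of the 10 rose, where 2.71% of all tested genes did. Among these 8 were *Retn*, by 1.44, and *Cidec*, by 0.69 on the log2 scale. The 8 markers of preadipocytes and fibroblasts summed to 15503 to 19974 and 15360 to 22981 CPM, with none passing the test, and the one with the smallest p, *Pdgfrb*, differed by 0.24 on the log2 scale (adjusted p = 0.294). Endothelial markers summed to 1.43 to 2.41 CPM in AdLacZ and 0.9996 to 1.81 CPM in Ad*Lmo3* libraries, and macrophage markers to 2.73 to 4.61 and 2.11 to 3.51 CPM. Muscle markers summed to 58.2 to 67.8 and 55.6 to 63.2 CPM, with *Myod1* at 0 in every library. Most of that sum was 1 gene, *Des*, at 49.0 to 57.1 CPM over all libraries. Of these last lists the genes with the smallest p were *Pecam1* (log2 difference -0.81, adjusted p = 0.172), *Cd68* (-0.74, adjusted p = 0.246) and *Acta1* (-1.003, adjusted p = 0.240). Each of these lists had 2 tested genes, and the other one was higher in Ad*Lmo3*. These were *Tek* (1.30, adjusted p = 0.369), *Csf1r* (0.49, adjusted p = 0.442) and *Des* (0.022, adjusted p = 0.913). *Pecam1* had 16 to 76 counts in a library and *Tek* 1 to 22. *Acta1* rested on single libraries, at -1.70 (adjusted p = 0.0320, edgeR) without Ad*Lmo3* replicate 1 and -0.63 without replicate 2.

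The sequences in which the members can be seen are their promoters and the primers by which the study measured *Klf5* and *Klf15* mRNA. Of the 10 members, 8 had a promoter of 300 bases, placed at the RefSeq gene start, in the table for GRCm38.p6. The RefSeq start need not be the outermost one of the GENCODE models used below: the window of *Klf7* lies wholly within its GENCODE gene. Each of the other windows runs partly into its gene. The promoters of *Klf2* and *Klf3* are printed because these were the members whose 3 Ad*Lmo3* libraries all lay below the 3 AdLacZ libraries. Capitals mark CACCC, a core of the sites that Kruppel-like factors bind, on either strand, so that it is read as GGGTG on the other strand.
*Klf2* promoter, chr8:72318812-72319111, plus strand: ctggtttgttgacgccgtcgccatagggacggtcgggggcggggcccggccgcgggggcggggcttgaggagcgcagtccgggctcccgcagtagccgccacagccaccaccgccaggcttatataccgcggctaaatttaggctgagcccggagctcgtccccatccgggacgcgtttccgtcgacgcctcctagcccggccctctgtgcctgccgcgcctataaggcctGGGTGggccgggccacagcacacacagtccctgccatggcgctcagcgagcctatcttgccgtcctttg
*Klf3* promoter, chr5:64803271-64803570, plus strand: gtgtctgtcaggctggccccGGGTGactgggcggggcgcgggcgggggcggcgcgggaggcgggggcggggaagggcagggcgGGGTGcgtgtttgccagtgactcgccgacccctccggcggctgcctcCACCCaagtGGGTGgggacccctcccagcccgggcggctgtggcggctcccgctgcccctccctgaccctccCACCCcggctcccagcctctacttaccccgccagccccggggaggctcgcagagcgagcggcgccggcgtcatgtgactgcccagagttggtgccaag
*Klf2* held 1 CACCC and 2 GC boxes (GGGCGG, on either strand), and *Klf3* held 5 and 6. 1 of the 5 matches in *Klf3* overlapped a GC box, and the match in *Klf2* did not. That *Klf2* match lies inside its GENCODE gene, which starts at 72319033, and not upstream of it. The *Klf3* gene starts at 64803388, so that its matches from the first one printed as CACCC onward lie inside the gene as well. Among the 8 members with a promoter, 6 held CACCC and 7 held a GC box, against 57.5% and 35.7% of the 32851 promoters of this length. Their GC content ran from 58.3% in *Klf7* to 76.7% in *Klf3*, where the median of all promoters was 52.7%. A match of these letters describes the sequence and shows no binding.

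The Q-PCR primers of the study show which stretch of each mRNA its assay read.
*Klf5* forward: ccagacggcagtaatggacac
*Klf5* reverse: ttgacgtctgtggaacagcag
*Klf15* forward: acaggcgagaagcccttt
*Klf15* reverse: cggtgccttgacaactcat
In GRCm38 with GENCODE M21, the *Klf5* pair bounded 80 bp within 1 coding exon on chromosome 14, from 99301863 to 99301942, and matched both annotated transcripts (2 of 2). The *Klf15* pair spanned an exon junction on chromosome 6, with the forward primer at 90467477 to 90467494 and the reverse primer at 90474134 to 90474152, and matched 5 of 5 transcripts. Its product was 80 bp in 4 of these and 117 bp in the remaining one. Against 25 other genes of the KLF and SP families, the nearest match to either *Klf5* primer had 6 mismatches. The *Klf15* forward primer came within 2 mismatches of *Klf11* and the reverse primer within 4 of *Klf10*.

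The members differed widely in abundance. Levels are compared here per length, as TMM-normalized CPM per kb of annotated exon, with the median and range over the 6 libraries. *Klf6* was the most abundant at 34.1 (27.9 to 38.6) and *Klf15* followed at 22.5 (19.7 to 24.4). *Klf9* was at 17.6 (14.8 to 19.4), so that the 3 highest members did not overlap with each other. *Klf4* at 10.02 (9.06 to 11.2) and *Klf13* at 9.95 (8.98 to 11.6) were not separated by their spread, nor were *Klf3* at 6.66 (6.37 to 6.998) and *Klf10* at 6.33 (5.26 to 11.4). The upper end of *Klf10*, which came from Ad*Lmo3* libraries, reached the levels of *Klf4* and *Klf13*. *Klf2* stood at 3.22 (2.63 to 3.91), *Klf7* at 0.505 (0.355 to 0.585) and *Klf5* at 0.0864 (0.0567 to 0.125), each below the full range of the member above it. *Klf5*, a factor of the early phase of adipogenesis, was thus the lowest of the 10 and was counted only 10 to 24 times in a library.

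**Figure D1:**
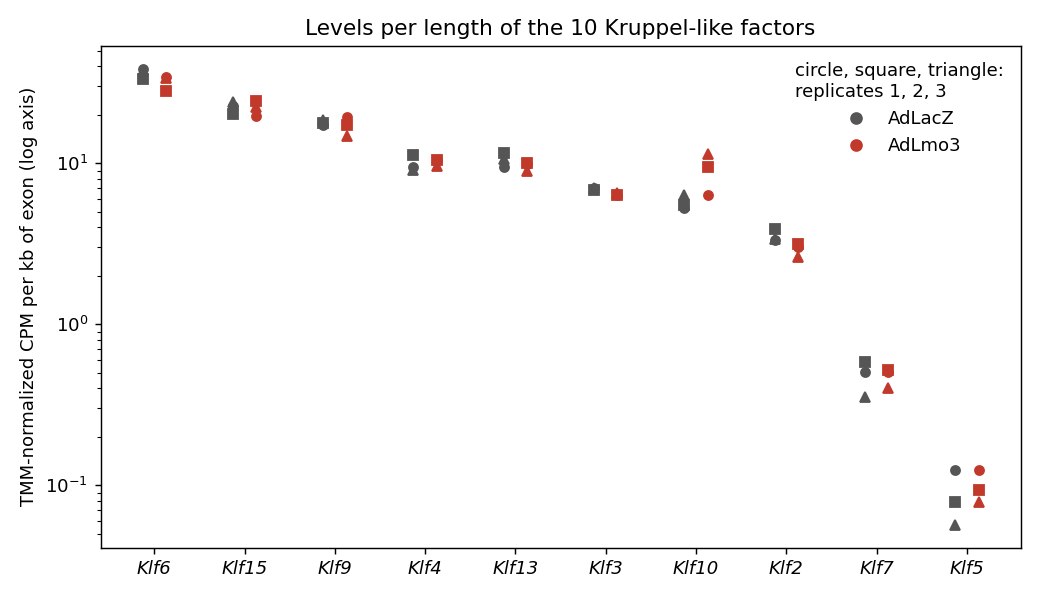
TMM-normalized CPM per kb of exon (log axis) of the 10 Kruppel-like factors in each AdLacZ (grey) and Ad*Lmo3* (red) library, ordered by their median; each symbol is 1 library. *Klf6* is the highest and *Klf5* the lowest member, and *Klf10* is the one whose Ad*Lmo3* libraries spread widely (6.33 is the median of all 6 libraries and 11.4 the highest).

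None of the 10 Kruppel-like factors passed the test between Ad*Lmo3* and AdLacZ, though DESeq2, the tool the study used, called *Klf10* (below). The test was edgeR's quasi-likelihood test on counts, adjusted over all 12766 tested genes (Benjamini-Hochberg), with an adjusted p under 0.05 as the threshold, and every adjusted p below comes from it unless another tool is named. 0 of 10 members were called, where 4.28% of all tested genes were, 2.71% as higher and 1.57% as lower in Ad*Lmo3*. At an unadjusted p under 0.05 there was 1 member, *Klf10*. Under Ad*Lmo3*, 3 members had a higher mean and 7 a lower one. The median log2 fold change of the 10 was -0.036, beside 0.0014 over all tested genes. The median size of the difference, regardless of sign, was 0.12 for the members and 0.13 for all genes. Precision was that of an average gene, since the median standard error was 0.0986 for the members and 0.0981 for all genes. In the intervals that follow, the confidence level is 95%. The p-values measure the spread between separate infections of 1 cell line.

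**Figure D2:**
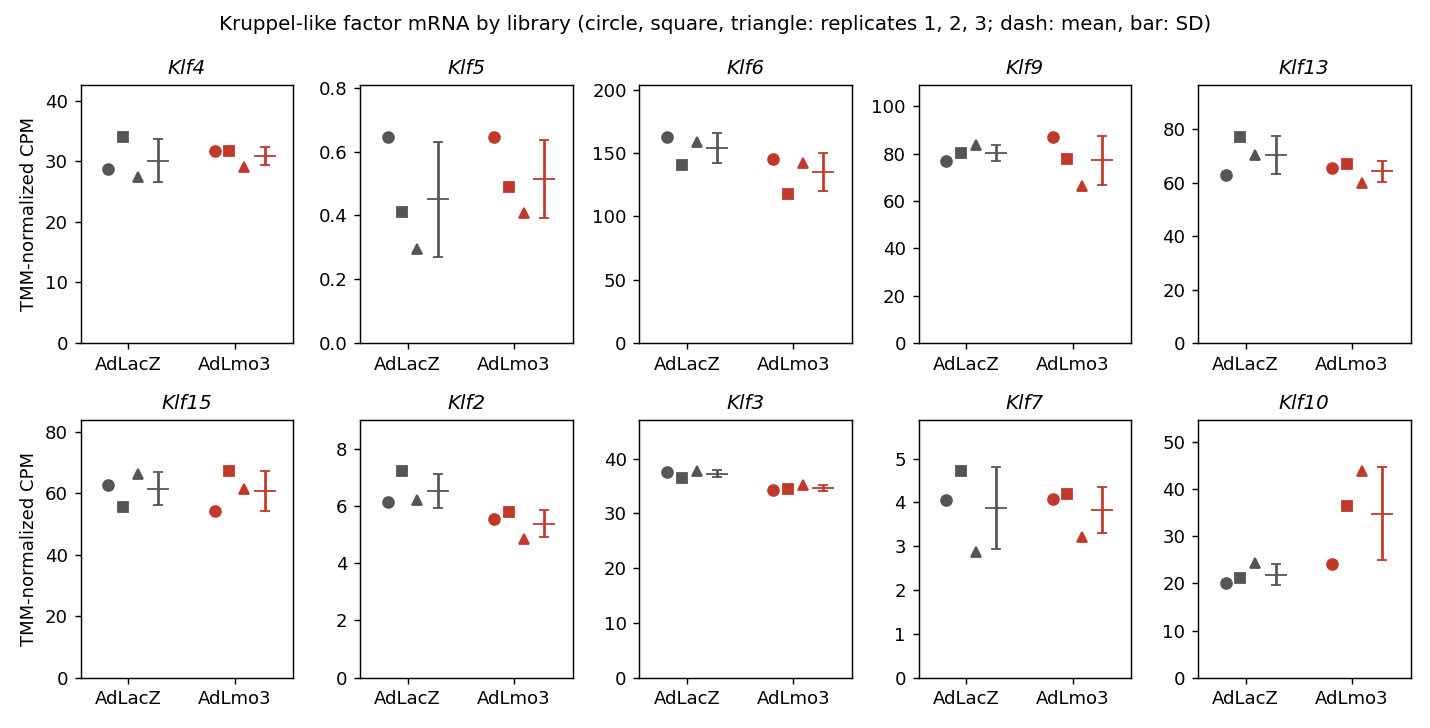
TMM-normalized CPM of each member in the 3 AdLacZ (grey) and 3 Ad*Lmo3* (red) libraries, each panel on its own axis from 0; the dash and bar beside the points give the mean and SD of the group. The groups are apart in *Klf2* and *Klf3* and overlap in the other 8 members, in *Klf10* through its lowest Ad*Lmo3* library.

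Among the 6 members that promote adipogenesis none passed the test, and their median log2 fold change was -0.036. *Klf15*, which is high in mature adipocytes and is induced by glucocorticoids, had 62.8, 55.5 and 66.3 CPM in AdLacZ replicates 1 to 3 and 54.1, 67.2 and 61.3 CPM in Ad*Lmo3* replicates 1 to 3. The highest and the lowest of these 6 values were both Ad*Lmo3* libraries. Its log2 fold change was -0.016 (interval -0.24 to 0.21, adjusted p = 0.953), so that a fall to 0.847-fold or a rise to 1.15-fold remained within the interval. *Klf9*, another factor that glucocorticoids induce, had 77.0, 80.2 and 83.5 CPM in AdLacZ and 87.2, 77.9 and 66.4 CPM in Ad*Lmo3* libraries. The Ad*Lmo3* values enclosed those of the control, and the log2 fold change was -0.055 (interval -0.28 to 0.17, adjusted p = 0.804). *Klf6*, the repressor of *Dlk1*, had 163, 140 and 159 CPM in AdLacZ and 145, 118 and 143 CPM in Ad*Lmo3* libraries. It was lower on average, 135 ± 15.1 against 154 ± 12.2 CPM (SD, n = 3 each), but AdLacZ replicate 2 lay among the Ad*Lmo3* values. Its log2 fold change of -0.19 (interval -0.41 to 0.040) had an adjusted p of 0.337. *Dlk1* itself had a log2 fold change of 0.0052 (interval -0.48 to 0.49, adjusted p = 0.993).

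*Klf13*, an activator of *Pparg*, had 63.0, 77.3 and 70.5 CPM in AdLacZ and 65.6, 67.2 and 59.9 CPM in Ad*Lmo3* libraries. Its groups overlapped, with a log2 fold change of -0.13 (interval -0.33 to 0.069, adjusted p = 0.454). *Klf4* had 28.7, 34.1 and 27.4 CPM in AdLacZ and 31.7, 31.7 and 29.1 CPM in Ad*Lmo3* libraries. All 3 Ad*Lmo3* values lay inside the control range, and the log2 fold change was 0.035 (interval -0.18 to 0.25, adjusted p = 0.885). *Klf5*, upstream of *Pparg* in early differentiation, had 23, 16 and 10 counts in AdLacZ and 24, 18 and 11 counts in Ad*Lmo3* libraries, or 0.295 to 0.646 and 0.407 to 0.648 CPM. At this depth a log2 difference anywhere from -0.65 to 1.06 was within the interval (estimate 0.21, adjusted p = 0.807), and a difference of that size was not detectable.

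The 3 members that restrain adipogenesis were lower in Ad*Lmo3* on average (median log2 fold change -0.11), and none passed the test. Among these, *Klf7* differed by only -0.015, and 4 of the 6 members that promote adipogenesis were lower too. *Klf2*, the repressor of *Pparg*, had 6.13, 7.22 and 6.22 CPM in AdLacZ and 5.53, 5.78 and 4.85 CPM in Ad*Lmo3* libraries. Every Ad*Lmo3* value was below every control value, with a log2 fold change of -0.27 (standard error 0.132, interval -0.58 to 0.030, adjusted p = 0.292). *Klf3* had 37.6, 36.5 and 37.7 CPM in AdLacZ and 34.3, 34.4 and 35.2 CPM in Ad*Lmo3* libraries. These groups were apart as well, and the replicates were the tightest of any member, with a coefficient of variation of 1.76% and 1.38%. The difference was small, -0.11 on the log2 scale (standard error 0.0582, interval -0.24 to 0.027, adjusted p = 0.352). Groups that do not overlap were common in these data: 13.2% of all tested genes were lower in every Ad*Lmo3* library and 26.5% were apart in either direction, against 2 of the 10 members, both lower.

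*Klf7* had 4.05, 4.71 and 2.86 CPM in AdLacZ and 4.08, 4.18 and 3.22 CPM in Ad*Lmo3* libraries, and the groups overlapped almost fully. Its log2 fold change was -0.015 (interval -0.50 to 0.47, adjusted p = 0.980). Of the stretches of 75 bases in *Klf7* transcripts, 37.6% are shared with *Gm26649*, a long noncoding RNA annotated on the opposite strand, and 6.06% of those of *Klf3* with *Gm20033*. The strand setting of the counting is not given in the sources used here, so the *Klf7* counts carry that uncertainty. The other 8 members shared no such stretch with another gene.

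*Klf10* showed the largest difference of the 10 and did not pass the test. The gene lies on chromosome 15 of GRCm38, from 38291463 to 38300706 on the minus strand. It had 20.2, 21.2 and 24.3 CPM in AdLacZ replicates 1, 2 and 3, from 717, 828 and 823 counts. It had 24.2, 36.4 and 43.8 CPM in Ad*Lmo3* replicates 1, 2 and 3, from 897, 1339 and 1183 counts. Ad*Lmo3* replicates 2 and 3 were above all controls, and replicate 1 was level with the highest control. The means were 21.9 ± 2.14 and 34.8 ± 9.89 CPM (SD, n = 3 each), a 1.59-fold difference with an interval of 1.17 to 2.16. On the log2 scale this was 0.67 (standard error 0.193), with an adjusted p of 0.1002 by edgeR's quasi-likelihood test. The spread among Ad*Lmo3* libraries, a coefficient of variation of 28.4%, was wide beside 9.80% among the controls.

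The call on *Klf10* depended on the processing and on 1 library. With DESeq2 its adjusted p was 0.0050, and without the filter on low counts it was 0.0451, at log2 fold changes of 0.67 in both. Without Ad*Lmo3* replicate 1 the log2 fold change was 0.88 (adjusted p = 0.0084, edgeR), and leaving out any other library gave 0.47 to 0.75 with adjusted p-values of 0.189 to 0.262. The direction was the same in all of these. The summed adipocyte markers were also lowest in replicate 1 and highest in replicate 3 within Ad*Lmo3*, at 17646, 20130 and 21828 CPM. Among the controls they were at 12142, 11770 and 12214 CPM, and the share of reads on no gene was 7.15%, 7.36% and 8.94% in Ad*Lmo3* replicates 1, 2 and 3. The part of either in the *Klf10* values was not tested, and in bulk RNA fewer cells of a type and less RNA per cell cannot be told apart.

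**Figure D3:**
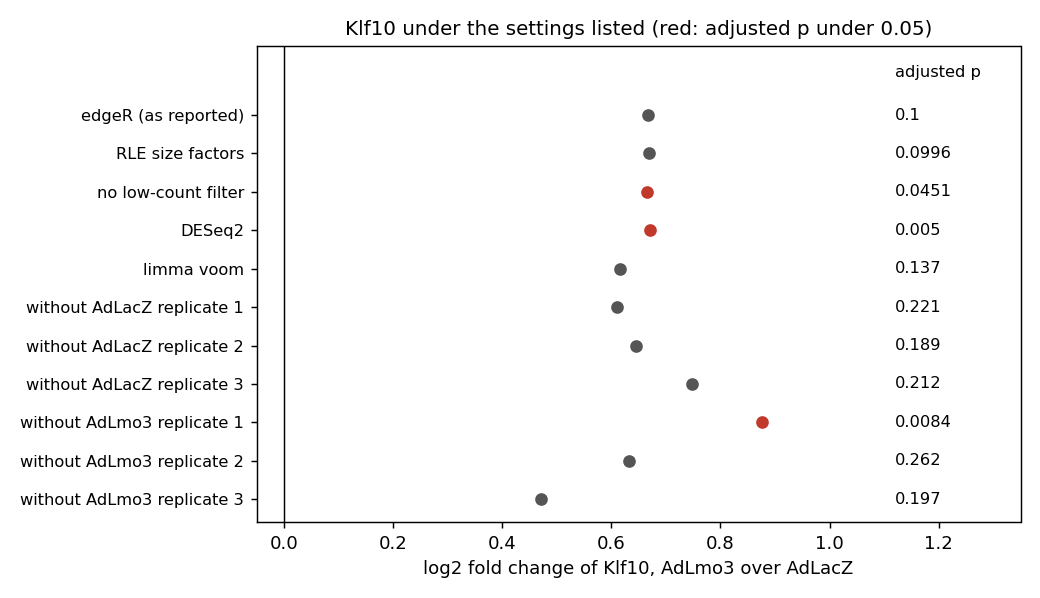
Log2 fold change of *Klf10* in Ad*Lmo3* over AdLacZ for the test as reported and for the alternatives listed, with the adjusted p of each at the right; red marks an adjusted p under 0.05. All points are above 0, from 0.47 without Ad*Lmo3* replicate 3 to 0.88 without Ad*Lmo3* replicate 1.

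The genes whose levels were most like *Klf10* over the 6 libraries were *Gtpbp1* (Pearson's r = 0.997), *Fbxl4* (0.992) and *Slc35e3* (0.989), on log2 CPM. They were picked as the highest among all tested genes on 6 points that share the same 2 groups, and the values are a description only. Their own log2 fold changes were 0.13, 0.11 and 0.20, with adjusted p-values of 0.305, 0.404 and 0.228. *Klf10* is also grouped with immediate early genes, since growth factors induce it rapidly. Of the 12 genes of that list none passed the test (median log2 fold change 0.38). The one with the smallest p was *Fosl1*, an AP-1 subunit, at 3.04, 13.2 and 5.87 CPM in AdLacZ and 24.8, 15.9 and 12.3 CPM in Ad*Lmo3* libraries. Its groups overlapped (log2 fold change 1.26, adjusted p = 0.179), and unlike *Klf10* it was highest in Ad*Lmo3* replicate 1. Leaving out 1 library moved it between 0.89 (without AdLacZ replicate 1) and 2.00 (without AdLacZ replicate 2, adjusted p = 0.0547).

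The rest of the family was read from the same fit. Of 7 further Kruppel-like factors, 3 had enough counts to be tested and none passed. *Klf11*, the closest relative of *Klf10*, had 17.6, 16.9 and 17.3 CPM in AdLacZ and 15.5, 19.0 and 21.4 CPM in Ad*Lmo3* libraries (log2 fold change 0.11, interval -0.17 to 0.38, adjusted p = 0.670). As in *Klf10*, its lowest Ad*Lmo3* value was that of replicate 1 and its highest that of replicate 3. Without replicate 1 its log2 fold change was 0.23, and without replicate 3 it was 0.00061. *Klf14* had no count in any library, and *Klf17* had at most 1. Of the 9 SP factors, which bind the same GC-rich elements, 4 were tested and none passed. *Sp2* had the smallest p among them, with 22.8, 24.6 and 22.4 CPM in AdLacZ and 21.1, 21.4 and 21.5 CPM in Ad*Lmo3* libraries (-0.13, adjusted p = 0.380). None of 11 cofactors that work with Kruppel-like factors passed either, and the one with the smallest p was the histone deacetylase *Hdac1* (0.14, adjusted p = 0.296).

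Several genes listed as partners or targets of these factors passed the test. Of 10 adipogenic partners, 2 rose and none fell, where 2.71% and 1.57% of all tested genes did. The median log2 fold change of the 10 was 0.23. *Pparg*, the master regulator of adipocytes and a gene at which KLF2 and KLF5 act in opposite directions, had 377, 367 and 422 CPM in AdLacZ and 493, 534 and 604 CPM in Ad*Lmo3* libraries. It rose by 0.48 on the log2 scale (standard error 0.0955, adjusted p = 0.0316). *Pparg* is also in the list of adipocyte markers, so that the partner and marker lists are not independent. *Cebpa*, which KLF3 represses, had 232, 207 and 230 CPM in AdLacZ and 308, 360 and 337 CPM in Ad*Lmo3* libraries. It rose by 0.59 (standard error 0.0835, adjusted p = 0.0111). Leaving out a library took away some of these calls. *Cebpa* had an adjusted p of 0.0601 without AdLacZ replicate 3. *Pparg* had 0.0917, 0.0879 and 0.0801 without AdLacZ replicates 1, 2 and 3, and 0.108 and 0.0710 without Ad*Lmo3* replicates 2 and 3.

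Of 10 genes listed as targets of Kruppel-like factors, 5 rose, 1 fell and 4 did not pass, with a median log2 fold change of 0.55. Over all tested genes 2.71% rose and 1.57% fell. Dependence of the listed genes on a Kruppel-like factor was not tested here. 5 of the 10 are also in the list of adipocyte markers, so that the lists are not independent. *Pck1*, the cytosolic PEPCK of glyceroneogenesis, had 342, 272 and 257 CPM in AdLacZ and 606, 668 and 713 CPM in Ad*Lmo3* libraries, and it rose by 1.19 (standard error 0.120, adjusted p = 0.0035). *Adipoq*, *Cfd* and *Fabp4*, which encode adiponectin, adipsin and the fatty acid carrier of adipocytes, rose by 1.05, 0.81 and 0.62 (adjusted p = 0.0072, 0.0078 and 0.0187). Without AdLacZ replicate 3 these 3 had adjusted p-values of 0.0554, 0.0601 and 0.0947, and *Fabp4* had 0.0632 without AdLacZ replicate 2 and 0.0834 without Ad*Lmo3* replicate 2.

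4 others among the same 10 listed genes, already counted above, are named after their values were seen. *Acss2*, an acetyl-CoA synthetase gene, had 136, 132 and 116 CPM in AdLacZ and 165, 208 and 233 CPM in Ad*Lmo3* libraries and rose by 0.66 (adjusted p = 0.0287). *Bcat2*, a gene of branched-chain amino acid breakdown, had 319, 340 and 352 CPM in AdLacZ and 276, 245 and 220 CPM in Ad*Lmo3* libraries and fell by 0.45 (adjusted p = 0.0401). *Slc2a4*, which encodes the insulin-responsive glucose transporter GLUT4, had 335, 371 and 386 CPM in AdLacZ and 361, 424 and 369 CPM in Ad*Lmo3* libraries, with overlapping groups (0.079, interval -0.13 to 0.28, adjusted p = 0.675). *Prodh*, which encodes proline dehydrogenase, had 3.60, 4.12 and 4.98 CPM in AdLacZ and 5.53, 4.10 and 4.41 CPM in Ad*Lmo3* libraries, and its groups overlapped as well (0.15, interval -0.27 to 0.56, adjusted p = 0.704). Both *Acss2* and *Bcat2* lost the call without any 1 of 5 libraries, all but Ad*Lmo3* replicate 1: without AdLacZ replicate 3, the largest loss, their adjusted p-values were 0.137 and 0.163.

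**Figure D4:**
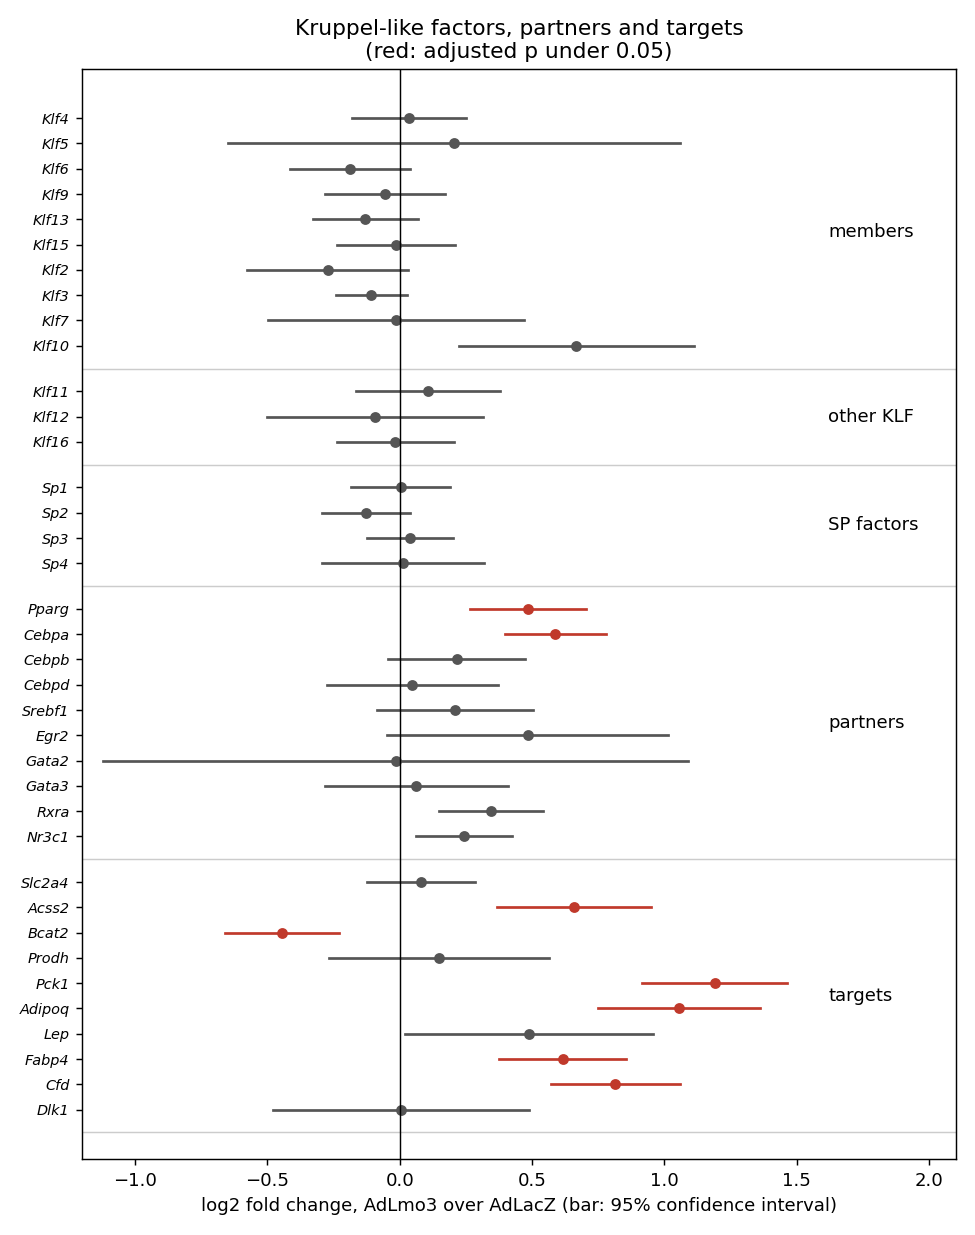
Log2 fold changes of Ad*Lmo3* over AdLacZ with 95% confidence intervals for the 10 members, the tested remainder of the KLF family, the SP factors, adipogenic partners and targets; red marks an adjusted p under 0.05. No Kruppel-like factor or SP factor is red, while 2 listed partners and 6 listed targets are. *Klf10* at 0.67 stands apart from the other members, which lie between -0.27 and 0.21.

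*Klf9* and *Klf15* are both glucocorticoid-responsive. In both groups the medium held dexamethasone only until day 3, before the infection on day 7. Of 8 genes that respond to glucocorticoids none passed the test, with a median log2 fold change of 0.071. The one with the smallest p was *Hsd11b1*, the enzyme that regenerates active glucocorticoid, at 74.7, 97.7 and 98.4 CPM in AdLacZ and 107, 191 and 209 CPM in Ad*Lmo3* libraries. Its groups did not overlap, with a log2 difference of 0.90 (standard error 0.233, adjusted p = 0.0731). Without Ad*Lmo3* replicate 1 it passed, as *Klf10* did (1.15, adjusted p = 0.0052), and it also passed with DESeq2 (0.0313) and without the filter on low counts (0.0222).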

How the data were processed

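RNA-Seq libraries of 6 infections were compared. The authors mapped reads to mm10 with STAR 2.5.0b, per the labels, and deposited raw counts per gene symbol, 1 library at a time; the counting program, strand setting and annotation are not given in the sources used here. Groups came from the labels. Reads on no gene (7.15% to 8.94%) or on several (0.476% to 0.543%) were left out. Counts were tested with edgeR 4.0.16 in R 4.3.3 (filterByExpr, TMM, quasi-likelihood test, no replicate block), Benjamini-Hochberg adjusted over 12766 genes, threshold 0.05. The floor of 3 counts corresponded to 0.0768 to 0.111 CPM, counting error only. Replicate pairs differed beyond sampling noise (chi-square per degree of freedom 24.1 to 64.8). The test was first run on simulated counts with 200 changed genes. Alternatives were DESeq2 1.42.0, limma 3.58.1 (voom), RLE factors, no filter, a replicate block and leaving out each library. Members and gene lists were chosen with earlier results of these data known. Named were all 10 members, up to 4 called genes per other list (otherwise the smallest p), listed further Kruppel-like factors with at most 3 counts in every library, and 3 genes most like the member with the smallest p. Exon lengths came from GENCODE M21 (GRCm38), promoters from RefSeq.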

Additional observations from a re-analysis of the deposited data

How the results depend on the processing

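The tested genes below the threshold numbered 547 as reported and 1110 with DESeq2, 659 without a low-count filter, 562 with limma voom, 542 with RLE factors, and 77 to 501 when 1 library was left out, the lowest without AdLacZ replicate 3. Members called numbered 0 as reported, 1 (*Klf10*) with DESeq2 and with no low-count filter, and 0 to 1 when 1 library was left out, the 1 being *Klf10* without Ad*Lmo3* replicate 1. Same-numbered libraries deviated together by r = 0.0345, 0.176 and 0.176, and AdLacZ replicate 1 correlated best with Ad*Lmo3* replicate 3 (0.111), so the numbers were not taken to pair the libraries; with the replicate block 498 genes were called, 400 of them shared with the reported fit, and 1 member was (*Klf10*, 0.64, adjusted p = 0.0460). With it *Hsd11b1* was called (adjusted p = 0.0193), and *Acss2* and *Bcat2* were not (0.0537 and 0.0640).

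Over 11 alternatives for each of the 10 members, 97 of the 110 values kept direction and side of the threshold, 4 (all *Klf10*) passed it and 9 changed sign. *Klf7* was at 0.0095 with limma voom. With 1 library left out, *Klf4* ranged from -0.027 to 0.13, *Klf5* from -0.013 to 0.55, *Klf7* from -0.19 to 0.15, *Klf9* from -0.15 to 0.042 and *Klf15* from -0.092 to 0.068. *Klf2*, *Klf3*, *Klf6* and *Klf13* kept their sign throughout, with *Klf2* between -0.33 and -0.19. Among other named genes that did not pass, *Pdgfrb* ranged from 0.16 to 0.34, *Hdac1* from 0.093 to 0.18 and *Prodh* from 0.010 to 0.28 with 1 library left out. Depth limits *Klf5* most, at 10 to 24 counts per library.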
